A study of Mus musculus with 53 samples.

Results

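Keratins are the intermediate filament proteins of epithelial cells, and 10 of their genes were followed here in mouse intestine and intestinal tumours. The set was taken by name and holds 4 simple epithelial keratins (Krt8, Krt18, Krt19 and Krt7), 3 keratins tied to differentiation or tumour state (Krt20, Krt23 and Krt80) and 3 squamous or basal keratins (Krt5, Krt14 and Krt17). They are 10 of the 55421 gene rows of the count table, which lists a further 43 protein-coding Krt genes. Only 15 of those 43 reached 1 CPM (counts scaled by the library total, the usual per-library unit) in any library.

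The study compared bulk RNA-seq of whole tissue from mice that carried VilCreER, a tamoxifen-inducible Cre driven by the villin promoter and active in the intestinal epithelium, so every allele below was recombined in epithelial cells and every control carried the Cre as well. Proximal colon was taken from BrafV600E/+ Alk5fl/fl mice (BA: an activated BRAF kinase with loss of the TGFβ receptor ALK5), from Alk5fl/fl mice (A) and from VilCreER-only mice (WT), and small intestine from Apcfl/fl, Apcfl/+ and WT mice (APC restrains Wnt signalling). The 53 libraries, each named as a separate sample, fall into 11 groups. Where no label ties a library to a separate animal, the p-values measure the spread between these samples.

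In the small intestine there were 10 Apcfl/fl and 6 WT libraries at day 4 after induction (Apcfl/fl d4, WT d4), and 5 Apcfl/+ tumours with 3 WT tissues (Apcfl/+ tumour, WT SI), the last pair from inbred C57BL6/J mice. In the proximal colon there were 4 BA tumours and 3 WT tissues (BA tumour, WT colon). At day 30 after induction there were 5 BA, 4 A and 4 WT libraries (BA d30, A d30, WT d30). A further 5 BA d30 libraries came from mice that drank antibiotics (1 g/L of ampicillin, of neomycin trisulphate and of metronidazole, with vancomycin at 500 mg/L), and 4 A d30 libraries from mice that drank sulindac, a non-steroidal anti-inflammatory drug, at 0.4 g/L for 14 days. All groups other than the inbred pair were of mixed C57BL/6J background. The 4 WT d30 libraries serve as the reference of 4 comparisons, and the BA d30 and A d30 libraries each enter 1 further comparison, so these results share samples. In whole tissue, fewer cells of a type and less RNA per cell cannot be told apart.

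Keratin filaments are built from equal parts of a type I and a type II keratin, and an unpaired chain is usually degraded. In the gut the main type II chain is Krt8, which pairs with the type I chains Krt18, Krt19 and Krt20, and filaments anchor to desmosomes through plakins such as desmoplakin. Krt7 is typical of ducts and other glandular linings, Krt20 of the differentiated upper crypt and villus, and Krt5, Krt14 and Krt17 of stratified and basal epithelia.

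The 10 keratins held nearly all keratin RNA in every library, between 97.8% and 99.9% of the summed per-length level of all Krt genes. On the scale of CPM per kilobase of transcript, the only scale on which different genes are compared here, their summed level averaged 3918 ± 407 (SD, n = 4) in WT d30, 8681 ± 591 (n = 5) in BA d30 and 9400 ± 1145 (n = 5) in BA d30 with antibiotics. It averaged 4709 ± 677 (n = 3) in WT colon and 4960 ± 1329 (n = 4) in BA tumours. The 2 day 30 BA groups lay above WT d30 without overlap, whereas the BA tumours (3535 to 6441) overlapped WT colon (4272 to 5489). In the small intestine the sum was 2742 ± 129 (n = 6) in WT d4 against 3081 ± 433 (n = 10) in Apcfl/fl d4, and 2004 ± 153 (n = 3) in WT SI against 4160 ± 911 (n = 5) in Apcfl/+ tumours.

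Krt8, Krt7, Krt5 and Krt80 are type II genes and lie on chromosome 15 of GRCm38, the build of the deposited table. Krt19, Krt20, Krt23, Krt14 and Krt17 are type I genes on chromosome 11. Krt18 is the exception, a type I gene that lies on chromosome 15 (chr15:102028180-102032027, plus strand) beside its partner Krt8 (chr15:101996698-102004482, minus strand), with the 2 genes pointing away from each other. The promoter windows of this neighbouring pair, of Krt7, and of Krt20 and Krt23 are printed because their RNAs moved apart or in opposite directions in several comparisons. Each window is the 250 bases before the RefSeq start on the strand of the gene (RefSeq, GRCm38.p6), and capitals mark matches, searched on both strands, to the TATA box (TATAAA) and to motifs known for the AP-1 factors (TGANTCA), for the TEAD factors (GGAATG) and for the TCF/LEF factors (CTTTGA).
Krt8, chr15:102004343-102004592, minus strand: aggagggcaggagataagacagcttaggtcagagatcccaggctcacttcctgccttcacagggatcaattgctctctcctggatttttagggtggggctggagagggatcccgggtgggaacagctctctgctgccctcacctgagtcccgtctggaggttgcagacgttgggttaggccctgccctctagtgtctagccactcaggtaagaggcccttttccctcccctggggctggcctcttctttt
Krt18, chr15:102027966-102028215, plus strand: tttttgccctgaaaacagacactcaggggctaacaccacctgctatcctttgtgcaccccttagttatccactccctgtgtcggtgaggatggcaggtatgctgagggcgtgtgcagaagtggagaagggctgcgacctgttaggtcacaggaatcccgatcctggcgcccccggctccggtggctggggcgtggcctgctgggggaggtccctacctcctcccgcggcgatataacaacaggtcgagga
Krt7, chr15:101412153-101412402, plus strand: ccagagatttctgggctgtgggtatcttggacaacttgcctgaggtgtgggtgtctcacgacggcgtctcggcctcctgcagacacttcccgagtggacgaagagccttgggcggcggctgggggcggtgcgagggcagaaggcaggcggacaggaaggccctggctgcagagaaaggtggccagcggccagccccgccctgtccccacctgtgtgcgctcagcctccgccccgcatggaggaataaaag
Krt20, chr11:99438154-99438403, minus strand: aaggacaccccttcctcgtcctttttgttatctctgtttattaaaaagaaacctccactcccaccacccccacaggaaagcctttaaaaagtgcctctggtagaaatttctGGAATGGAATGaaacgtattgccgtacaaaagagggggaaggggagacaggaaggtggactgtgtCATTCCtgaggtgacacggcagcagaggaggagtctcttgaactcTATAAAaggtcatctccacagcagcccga
Krt23, chr11:99493121-99493370, minus strand: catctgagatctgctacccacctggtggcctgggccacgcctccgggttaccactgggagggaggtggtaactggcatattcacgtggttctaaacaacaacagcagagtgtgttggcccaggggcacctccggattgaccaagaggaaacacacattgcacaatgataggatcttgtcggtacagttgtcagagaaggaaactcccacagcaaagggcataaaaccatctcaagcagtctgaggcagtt

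Of the 10 keratins, 7 had a RefSeq promoter entry (Krt19, Krt80 and Krt17 had none), and 2 of the 7 held a match. The Krt20 window held 1 TATAAA, 29 bases before the start, and 3 GGAATG matches. Of these, 2 overlap each other on the gene strand, 139 and 134 bases before the start, and 1 lies on the other strand at 74 bases. The Krt14 window held 1 GGAATG, 66 bases before the start. Of 32851 windows of this length, 12.4% hold TATAAA, 12.6% GGAATG, 13.8% CTTTGA and 6.75% TGANTCA. A window without a match lacks only these letters.

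Total counts ran from 516985 to 32824795 reads per library, with Apcfl/fl d4 replicate 1 the shallowest. The labelled tissues were checked against markers fixed for each. The summed level of 6 colonocyte genes was at least 12970 CPM in all colon tissues and 862 to 5087 CPM in BA tumours, and at most 338 CPM in the small intestine. The 6 enterocyte genes summed to at least 2555 CPM in 23 of the 24 small intestinal libraries, and to 36.1 CPM in Apcfl/+ tumour replicate 2, which stood apart from its group in several keratins. A d30 replicate 1 also stood apart, with the highest level in its group of Krt8, Krt18, Krt19, Krt20 and Krt7 and an enterocyte marker sum of 2256 CPM against 1140 to 1222 CPM in the other 3. Results that rest on these libraries are given with and without them.

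Between each mutant group and its own WT, keratins rose far more often than they fell. A keratin is called here where edgeR's quasi-likelihood test gave a Benjamini-Hochberg adjusted p under 0.05 over all genes tested. In BA d30 against WT d30, 7 of the 9 keratins tested were called higher and 0 lower, where 25.8% of all genes were called higher and 55.1% in either direction, and 45.2% did not overlap between the groups. In BA d30 with antibiotics against WT d30, 7 of 9 were called higher, against 21.8% of all genes higher, 39.6% in either direction and 34.1% without overlap. In Apcfl/+ tumours against WT SI, 8 of 9 were called higher, against 31.4% of all genes higher, 61.5% in either direction and 59.4% without overlap. In BA tumours against WT colon, 4 of 9 were called higher, against 7.46% of all genes higher, 13.2% in either direction and 27.1% without overlap. In Apcfl/fl d4 against WT d4, 4 of 8 were called higher and 1 lower, against 27.5% of all genes higher, 26.7% lower, 54.2% in either direction and 17.8% without overlap. In A d30 and in A d30 with sulindac, 0 of 8 were called against WT d30, where 0.141% and 0.0507% of all genes were called in either direction. In those comparisons 2 keratins (A d30) and 3 (sulindac) had an unadjusted p under 0.05, and DESeq2 called 0 and 1. The counts include Krt14 in both BA day 30 comparisons and Krt14 and Krt17 in Apcfl/+ tumours, which passed the filter on low counts through the mutant libraries and so give no support to a direction.

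**Figure D1:**
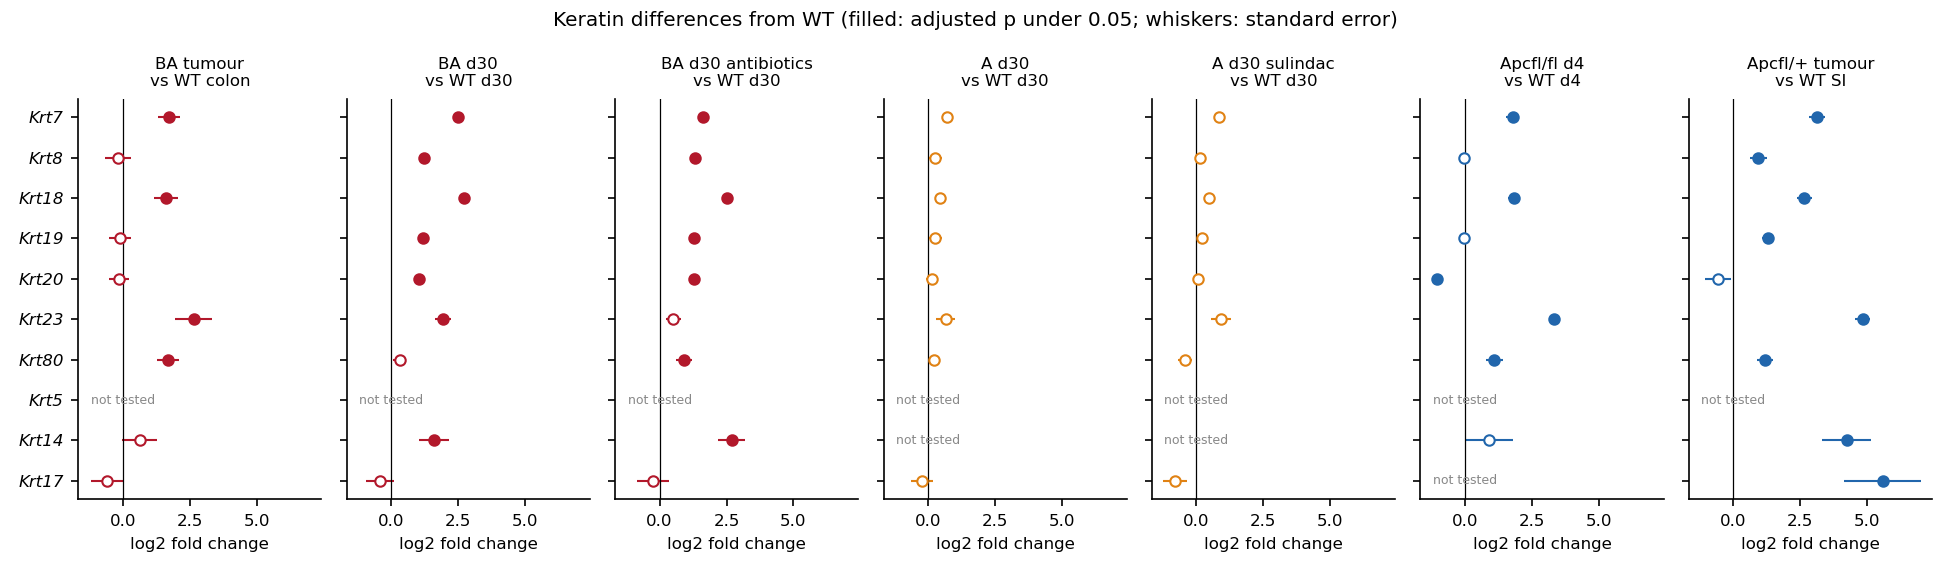
Log2 fold change of each keratin against its own WT (x axis) in the 7 comparisons, with standard errors as whiskers and filled points for adjusted p under 0.05. Krt18 and Krt7 are filled to the right of 0 in all BA and Apc panels, Krt23 in all of them except BA d30 with antibiotics, Krt20 lies left of 0 in Apcfl/fl d4, and no point is filled in the A panels.

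Krt8, the main type II chain of the gut, had the highest per-length level of the 10 keratins in 10 of the 11 groups. In WT d30 it stood at 3141, 3359, 2853 and 3068 CPM, and in BA d30 at 6190, 6770, 6757, 5812 and 6975 CPM. With antibiotics the BA libraries read 7487, 7907, 5631, 7556 and 7398 CPM, all above every WT library. The log2 fold change against WT d30 was 1.22 (SE 0.08, adjusted p = 6.12e-07) in BA d30 and 1.33 (SE 0.13, adjusted p = 2.71e-05) with antibiotics. BA tumours (3837, 2485, 5309 and 5474 CPM) overlapped WT colon (4489, 4336 and 5705 CPM), with a log2 fold change of -0.18 (SE 0.49, adjusted p = 0.849).

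In the small intestine Krt8 ran from 1673 to 2516 CPM (median 2152) in Apcfl/fl d4 and from 1642 to 1966 CPM (median 1840) in WT d4, which overlap (-0.04, SE 0.11, adjusted p = 0.765). Apcfl/+ tumours read 4119, 2395, 4623, 4026 and 3020 CPM against 2129, 1731 and 1870 CPM in WT SI. All 5 tumours were above the 3 WT libraries in CPM, and the difference was 0.94 (SE 0.31, adjusted p = 0.0261). That call held in 3 of 8 fits that left out 1 library. It was lost without WT SI replicate 2 or 3 or without tumour replicate 1, 3 or 4, with adjusted p up to 0.0860 and log2 values of 0.82 to 1.08 over all 8 fits. It was also lost when libraries were scaled on 10 pan-epithelial genes (0.28, adjusted p = 0.391).

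Reads of Krt8 are shared with a processed copy, Krt8-ps, chosen here after its values were seen. Of the 36-base words of the Krt8 transcripts, 30.42% also occur in Krt8-ps, and the copy held up to 600 CPM in the day 4 and day 30 groups but at most 12.2 CPM in BA tumours, WT colon, WT SI and Apcfl/+ tumours. The source of that difference was not tested, and Krt8 levels are compared here within a set. Summing both rows, an alternative added after the data were seen, left each Krt8 call as it was, with 1.22 in BA d30 and 0.94 in Apcfl/+ tumours.

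Krt18, the type I partner encoded beside Krt8, moved further than Krt8 in every comparison in which it was called. It read 193, 287, 246 and 217 CPM in WT d30 and 1279, 1451, 1509, 1452 and 1297 CPM in BA d30, with no overlap. With antibiotics it read 1194, 1351, 1021, 1352 and 1315 CPM. The log2 fold changes were 2.72 (SE 0.13, adjusted p = 5.69e-08) and 2.52 (SE 0.15, adjusted p = 1.31e-06), the first being the largest of the 10 keratins in BA d30.

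The same gene rose in tumours and after Apc loss. BA tumours held 832, 1391, 1103 and 1647 CPM of Krt18, all above WT colon at 565, 244 and 491 CPM (1.6, SE 0.45, adjusted p = 0.0468). Apcfl/fl d4 ranged from 387 to 1163 CPM (median 764), all above WT d4 at 133 to 276 CPM (median 151), a difference of 1.84 (SE 0.22, adjusted p = 4.59e-06). Apcfl/+ tumours read 1140, 658, 1045, 1215 and 1039 CPM against 131, 170 and 190 CPM in WT SI (2.65, SE 0.28, adjusted p = 0.000124), and 2.80 without tumour replicate 2. In A d30 the values (448, 298, 277 and 292 CPM) overlapped WT d30, with 0.45 (SE 0.20, adjusted p = 0.510), and 0.23 without A d30 replicate 1.

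**Figure D2:**
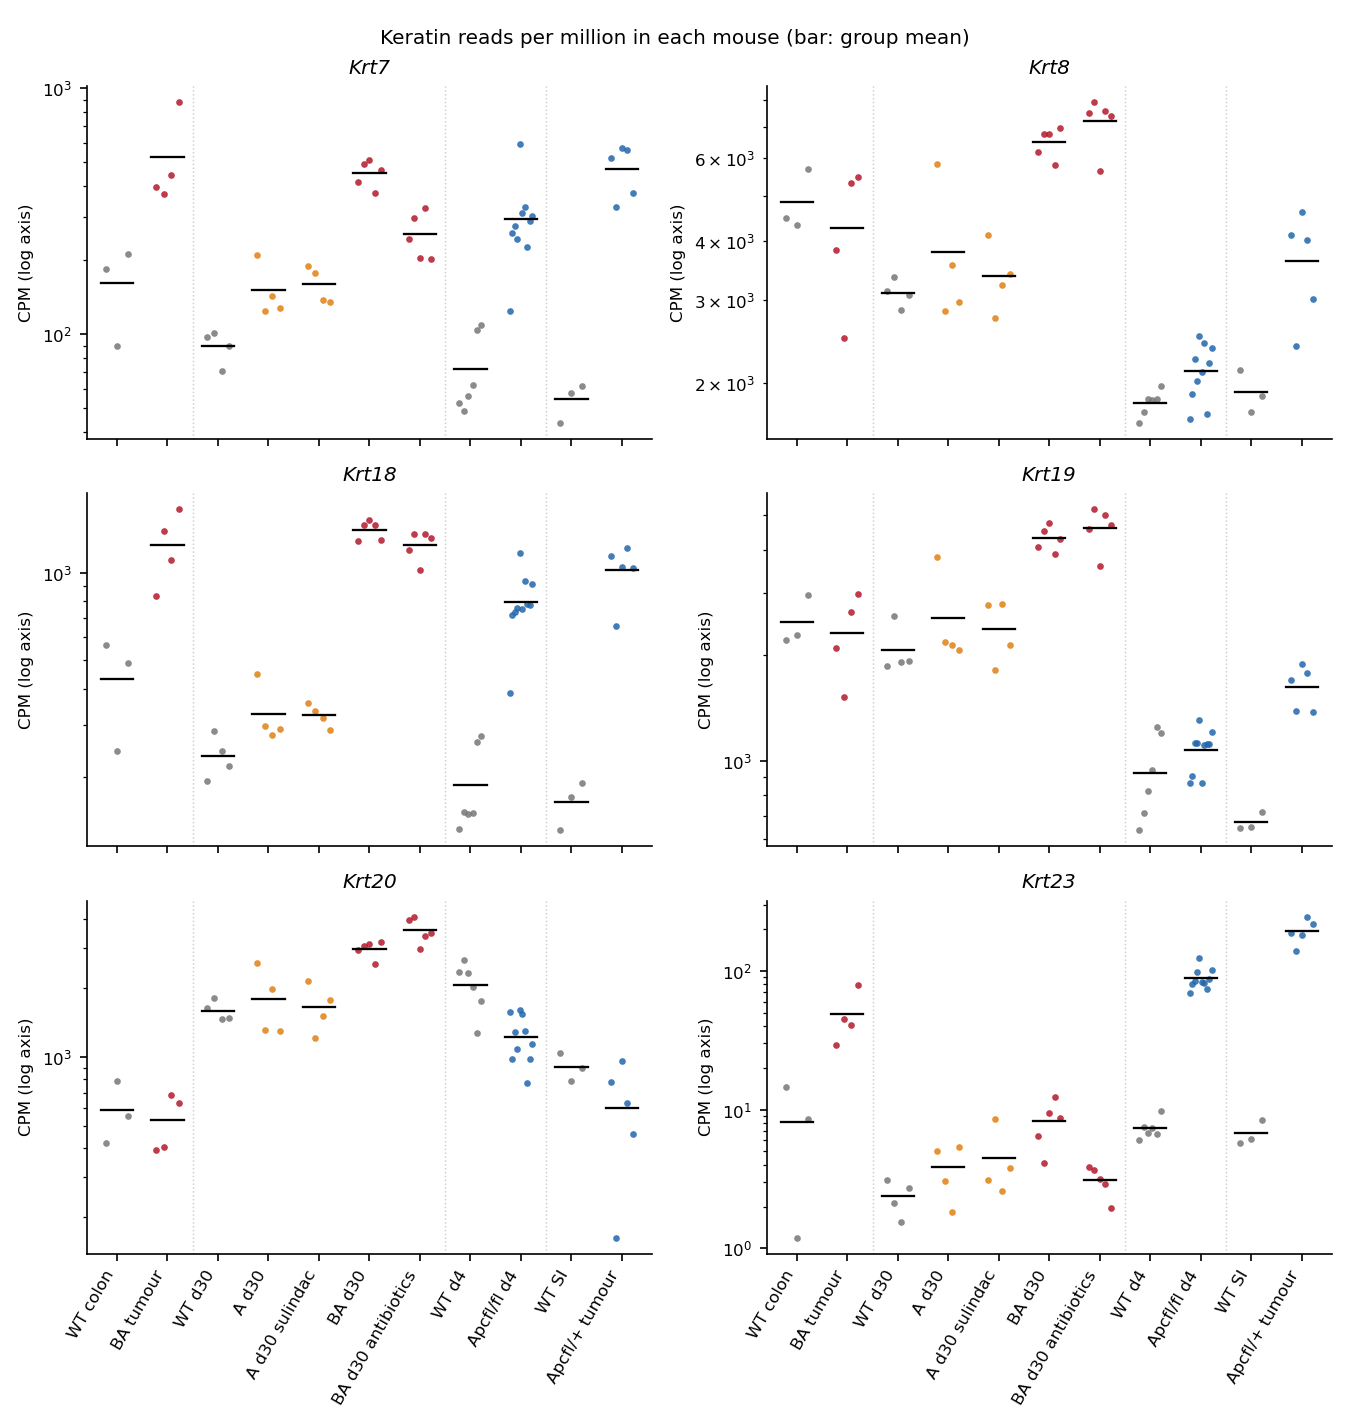
CPM of the 6 most abundant or most changed keratins in each library (points, log axis) by group, with the group mean as a bar. Krt18 rises from at most 287 CPM in WT d30 to at least 1279 CPM in BA d30, while Krt8 in BA tumours overlaps WT colon.

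The ratio of Krt18 to Krt8, both per kilobase, shows how far the 2 neighbouring genes moved apart. This ratio was chosen after the values of the 2 genes were seen and carries no test. It averaged 0.104 in WT d30 (0.0838 to 0.117), 0.294 in BA d30 (0.253 to 0.340) and 0.237 with antibiotics (0.217 to 0.247). In the tumour comparisons it was 0.122 in WT colon (0.0767 to 0.172) against 0.438 in BA tumours (0.283 to 0.763), and 0.119 in WT SI (0.0839 to 0.138) against 0.388 in Apcfl/+ tumours (0.308 to 0.469). WT d4 averaged 0.139 (0.11 to 0.194) and Apcfl/fl d4 0.505 (0.315 to 0.630). In each of these the mutant range lay wholly above its own WT range, whereas A d30 (0.105 to 0.143) and A d30 with sulindac (0.115 to 0.166) overlapped WT d30. The level of Krt8-ps differs between the library sets, and its part in the ratio was not tested.

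**Figure D3:**
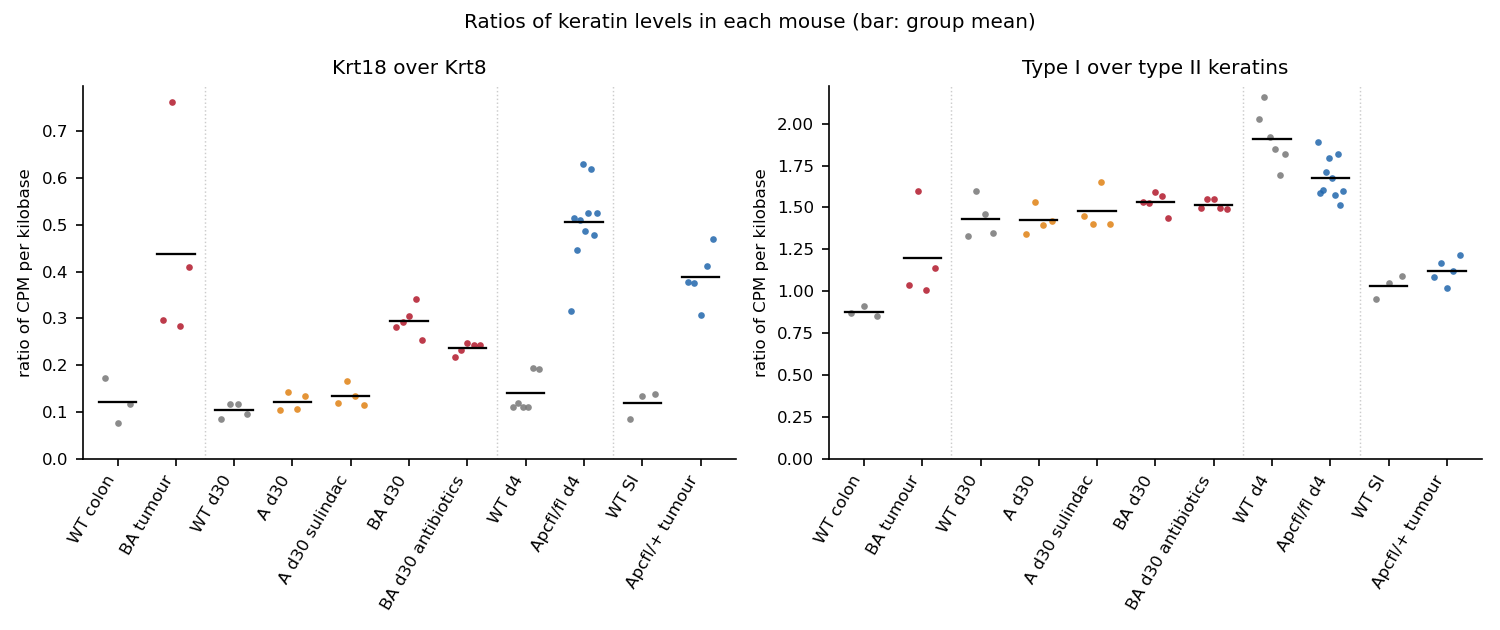
Ratios of per-length keratin levels in each library (points) by group, with the mean as a bar: Krt18 over Krt8, and all type I over all type II members. Krt18 over Krt8 is above the WT range in the BA and Apc groups, and lies between 0.105 and 0.166 in the A groups.

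Summed over the members, type I chains outweighed type II chains in RNA in most groups. The ratio of type I to type II was 1.43 ± 0.12 (SD, n = 4) in WT d30 and 1.53 ± 0.06 (n = 5) in BA d30, which overlap. It was 0.876 ± 0.030 (n = 3) in WT colon and 1.20 ± 0.27 (n = 4) in BA tumours, without overlap (0.851 to 0.910 against 1.01 to 1.597). In the day 4 small intestine it went the other way between Apcfl/fl d4 (1.68 ± 0.12, n = 10) and WT d4 (1.91 ± 0.16, n = 6), whose ranges overlap. Apcfl/+ tumours ran from 1.02 to 1.21 and WT SI from 0.951 to 1.09, which also overlap, with the tumours toward the higher end. As a share of the 10 keratins, Krt18 went from 4.18% in WT d30 to 11.2% in BA d30, and Krt20 from 39.1% in WT d4 to 20.7% in Apcfl/fl d4.

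Krt19, a type I chain of simple and progenitor-rich epithelia, followed Krt8 closely. It read 1862, 2586, 1919 and 1923 CPM in WT d30, with replicate 2 above the rest, and 4062, 4510, 4755, 3886 and 4293 CPM in BA d30. With antibiotics it read 4590, 5206, 3593, 5018 and 4694 CPM. Both BA groups were above all WT libraries, by 1.20 (SE 0.12, adjusted p = 8.20e-06) and 1.27 (SE 0.15, adjusted p = 0.000122). BA tumours (2102, 1521, 2665 and 2998 CPM) overlapped WT colon (2213, 2289 and 2974 CPM), with -0.10 (SE 0.41, adjusted p = 0.905). Apcfl/fl d4 (867 to 1312 CPM, median 1117) overlapped WT d4 (636 to 1248 CPM, median 884), with -0.03 (SE 0.16, adjusted p = 0.892). Apcfl/+ tumours (1703, 1385, 1891, 1779 and 1380 CPM) were above WT SI (644, 650 and 718 CPM), by 1.28 (SE 0.21, adjusted p = 0.000916). Across all 53 libraries the log2 CPM of Krt8 and Krt19 had a Pearson r of 0.948, over points that differ in tissue, genotype and depth.

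Krt7, a type II chain of ductal and other glandular epithelia, was a minor keratin that rose in all BA and Apc groups. The study itself followed Krt7 as a foetal marker in these samples, so its direction is not independent evidence. BA tumours held 398, 372, 446 and 879 CPM, and WT colon 184, 89.3 and 212 CPM. The groups did not overlap, and replicate 4 lay far above the other tumours. The difference was 1.72 (SE 0.42, adjusted p = 0.0275).

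At day 30 Krt7 read 97.9, 101, 70.7 and 89.7 CPM in WT, and 415, 494, 512, 374 and 465.9 CPM in BA. With antibiotics it read 243, 298, 204, 325 and 203 CPM, which is between the WT and the untreated BA libraries and overlaps neither. The log2 fold change against WT d30 was 2.49 (SE 0.13, adjusted p = 1.06e-07) without antibiotics and 1.62 (SE 0.18, adjusted p = 6.14e-05) with them. A d30 libraries held 209, 125, 143 and 128 CPM and those with sulindac 189, 177, 138 and 135 CPM. All 8 lay above the highest WT d30 library, yet neither comparison was called (0.73, SE 0.20, adjusted p = 0.381, and 0.83, SE 0.15, adjusted p = 0.160). Of all genes, 4.71% and 5.19% did not overlap between the groups in these comparisons. DESeq2 called Krt7 with sulindac (adjusted p = 0.000886), and without A d30 replicate 1 the A d30 value was 0.49.

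In Apcfl/fl d4, Krt7 ran from 124 to 592 CPM (median 281), with replicate 5 the highest, and in WT d4 from 48.9 to 109 CPM (median 59.0). The CPM ranges did not overlap, although the ranges after scaling by the fit did, and the difference was 1.78 (SE 0.26, adjusted p = 2.38e-05), or 1.63 without replicate 5. Apcfl/+ tumours held 519, 329, 571, 562 and 376 CPM against 43.6, 57.7 and 61.8 CPM in WT SI (3.13, SE 0.29, adjusted p = 6.51e-05). Over the 53 libraries Krt7 had a Pearson r of 0.94 with Krt18. The non-keratin genes whose log2 CPM tracked Krt7 most closely were Bok (r = 0.905), Tnfaip8l1 (0.902) and Ankrd22 (0.898), of 12577 genes compared. An antisense gene model, Gm671, overlaps Krt7, and whether counting used strand is not given in the sources used here.

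Krt20, the type I keratin of differentiated enterocytes and colonocytes, was the only 1 of the 10 keratins called lower against a WT. In Apcfl/fl d4 it ran from 768 to 1613 CPM (median 1212), and in WT d4 from 1276 to 2651 CPM (median 2180). The ranges overlap, and the log2 fold change was -1.05 (SE 0.18, adjusted p = 0.000138). In those samples 5 of the 5 enterocyte markers tested were called lower as well (26.7% of all genes). The summed levels of all 6 were 2555 to 8933 CPM against 10880 to 20450 CPM. The marker left untested, Fabp6, was near the counting floor and not lower (median 0.385 CPM against 0.163 CPM). The part of these markers in the fall of Krt20 was not tested.

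At day 30 Krt20 went the other way. It read 1633, 1804, 1464 and 1480 CPM in WT d30, and 2948, 3059, 3131, 2542 and 3170 CPM in BA d30. With antibiotics it read 3983, 4103, 2963, 3387 and 3469 CPM. Both BA groups lay above WT, by 1.05 (SE 0.09, adjusted p = 4.88e-06) and 1.28 (SE 0.13, adjusted p = 4.84e-05). In the same comparison of BA d30 with WT d30, 5 of 6 colonocyte markers were called lower, as were 5118 of the 17471 genes tested. Of the 5 enterocyte markers tested, 3 were called higher and 0 lower, where 25.8% of all genes were called higher. Apoa4, an apolipoprotein, was higher by 2.16 but near the counting floor, at 0.538 to 2.71 CPM against 0.109 to 1.01 CPM in WT d30. The part of these markers in the Krt20 values was not tested.

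In tumours Krt20 was not called. BA tumours (394, 407, 687 and 633 CPM) overlapped WT colon (423, 790 and 557 CPM), with -0.14 (SE 0.37, adjusted p = 0.844). Apcfl/+ tumours read 782, 164, 959, 631 and 463 CPM against 1041, 785 and 897 CPM in WT SI (-0.57, SE 0.49, adjusted p = 0.328). Replicate 2, the tumour with 36.1 CPM of enterocyte genes, had the lowest Krt20, and without it the difference was -0.32. On the scale set by pan-epithelial genes Krt20 was called lower in Apcfl/+ tumours (-1.24, adjusted p = 0.0391). The genes that tracked Krt20 most closely over the 53 libraries were Mall (r = 0.916), Fam214b (0.905) and Srxn1 (0.890).

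Krt23, a type I keratin at low level in normal gut, showed the largest rise of the simple and differentiation keratins in both Apc comparisons. It belongs to the Wnt signature that the study derived from the Apcfl/fl and WT comparison, so its direction there is not independent evidence. Apcfl/fl d4 held 69.6 to 124 CPM (median 83.1) and WT d4 6.08 to 9.74 CPM (median 7.07), without overlap (3.32, SE 0.14, adjusted p = 1.31e-10). Apcfl/+ tumours held 186, 139, 182, 246 and 216 CPM against 5.79, 6.16 and 8.43 CPM in WT SI, a difference of 4.84 (SE 0.28, adjusted p = 1.09e-05).

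The BA groups held less Krt23 than the Apc groups. BA tumours read 29.3, 44.7, 40.9 and 79.2 CPM and WT colon 14.7, 1.20 and 8.57 CPM, so the groups did not overlap while WT colon itself spread widely (2.65, SE 0.70, adjusted p = 0.0372). BA d30 read 6.43, 4.14, 9.498, 12.3 and 8.65 CPM against 3.10, 2.13, 1.55 and 2.74 CPM in WT d30, again without overlap (1.94, SE 0.30, adjusted p = 0.000284). With antibiotics Krt23 read 3.88, 3.67, 3.17, 2.93 and 1.96 CPM, which overlaps WT d30 (0.52, SE 0.26, adjusted p = 0.144). A d30 (5.06, 3.06, 1.84 and 5.35 CPM) and A d30 with sulindac (3.11, 8.51, 2.58 and 3.81 CPM) overlapped WT d30 too. Over all libraries the closest genes were Sox4 (r = 0.923), a Wnt-responsive transcription factor, Uck2 (0.918) and Soat1 (0.917). Krt20 and Krt23 had an r of -0.56.

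Krt80, a type II chain of differentiating epithelia, stayed below 7 CPM throughout. BA tumours read 6.11, 5.07, 2.95 and 6.90 CPM, all above WT colon at 1.58, 2.23 and 1.16 CPM (1.67, SE 0.41, adjusted p = 0.0288). Apcfl/+ tumours read 1.39, 2.02, 1.20, 1.08 and 1.61 CPM, all above WT SI at 0.449, 0.536 and 0.925 CPM (1.18, SE 0.30, adjusted p = 0.00861). That call was lost when scaled on pan-epithelial genes (0.56, adjusted p = 0.148) and with the replicate number as a block. Apcfl/fl d4 (0.800 to 5.97 CPM, median 3.72) overlapped WT d4 (0.625 to 2.40 CPM, median 1.41) and was called higher (1.11, SE 0.32, adjusted p = 0.00750).

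At day 30 the Krt80 groups overlapped. BA d30 (4.27, 2.18, 3.62, 1.96 and 3.23 CPM) was not called against WT d30 (2.17, 3.19, 2.78 and 2.64 CPM), at 0.32 (SE 0.25, adjusted p = 0.287). With antibiotics Krt80 read 2.03, 5.20, 6.95, 5.48 and 3.99 CPM and was called higher (0.92, SE 0.31, adjusted p = 0.0364). That call held in 3 of 9 fits that left out 1 library. It was lost without antibiotic replicate 2, 3 or 4 or WT d30 replicate 1, 3 or 4 (adjusted p up to 0.0941, log2 values of 0.74 to 1.08 over the 9 fits), and on the pan-epithelial scale (0.63, adjusted p = 0.146). An antisense gene model, Gm35853, overlaps Krt80, and reads of both genes cannot be told apart where strand was not used.

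The squamous keratins were at or near the counting floor in most libraries. A count of 3 reads corresponds to about 0.138 to 0.192 CPM at the median depth of a group, and these floors cover counting error only. Krt5, the type II chain of basal cells, reached at most 3.29 CPM (WT d4 replicate 1) and passed the filter on low counts in none of the 10 comparisons. Its partner Krt14 and the stress- and repair-linked Krt17 passed in 8 and 9 of them. Since a gene this low can pass through the group in which it is high, these numbers of tests are no support for a direction.

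Both type I squamous chains, Krt14 and Krt17, were higher in Apcfl/+ tumours than in WT SI. Krt14 read 26.0, 11.5, 2.95, 6.63 and 7.38 CPM there, against 0.898, 0.0536 and 0.762 CPM in WT SI (4.24, SE 0.91, adjusted p = 0.00383). Krt17 read 1.82, 15.7, 0.691, 0.716 and 5.09 CPM against 0.0998, 0.0536 and 0.109 CPM, the WT values being 2, 1 and 2 counts. All 5 tumours were above the 3 WT libraries for both genes. From the summed counts (499 in tumours, 5 in WT SI) the ratio of Krt17 levels was 51.3 (95% exact interval 21.8 to 159, counting error only), and the fitted log2 value was 5.58 (SE 1.43, adjusted p = 0.00874), a value that depends on the prior count. Krt14 and Krt17 were tested only because of their counts in the tumours, so both calls are given as a description. Without tumour replicate 2, which had the most Krt17, the fitted Krt17 value was 4.53 (adjusted p = 0.00402). Krt5 in the same tumours held 0 to 2 counts.

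Elsewhere Krt14 changed by small amounts. BA d30 held 0.557, 0.616, 0.829, 0.231 and 1.02 CPM (4 to 19 counts) against 0.0543, 0.531, 0.235 and 0.108 CPM in WT d30 (1 to 10 counts). These overlap, and the call (1.6, SE 0.56, adjusted p = 0.0298) held in 2 of the 5 leave-one-out fits in which Krt14 was tested. It was lost without WT d30 replicate 1, 3 or 4, with adjusted p up to 0.0794 and log2 values of 1.27 to 2.34 over those 5 fits. It was also lost when scaled on pan-epithelial genes (1.14, adjusted p = 0.0762) and in 1 fit of all 5 day 30 groups. With antibiotics Krt14 read 0.869, 1.96, 1.28, 1.11 and 1.96 CPM, all above WT d30 (2.69, SE 0.51, adjusted p = 0.00206). In Apcfl/fl d4 it was not called (0.89, SE 0.91, adjusted p = 0.423), and replicate 5 (13.6 CPM) set the direction, which was -0.64 without it. Krt17 was not called in BA tumours (0.582 to 2.95 CPM against 0.741 to 3.75 CPM in WT colon) or in the day 30 groups. Of the words of the Krt14 transcripts 23.9% occur in other genes, chiefly Krt16 (15.8%), and 11.9% of those of Krt17, chiefly Krt14 (9.10%), so low counts of these genes are uncertain.

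**Figure D4:**
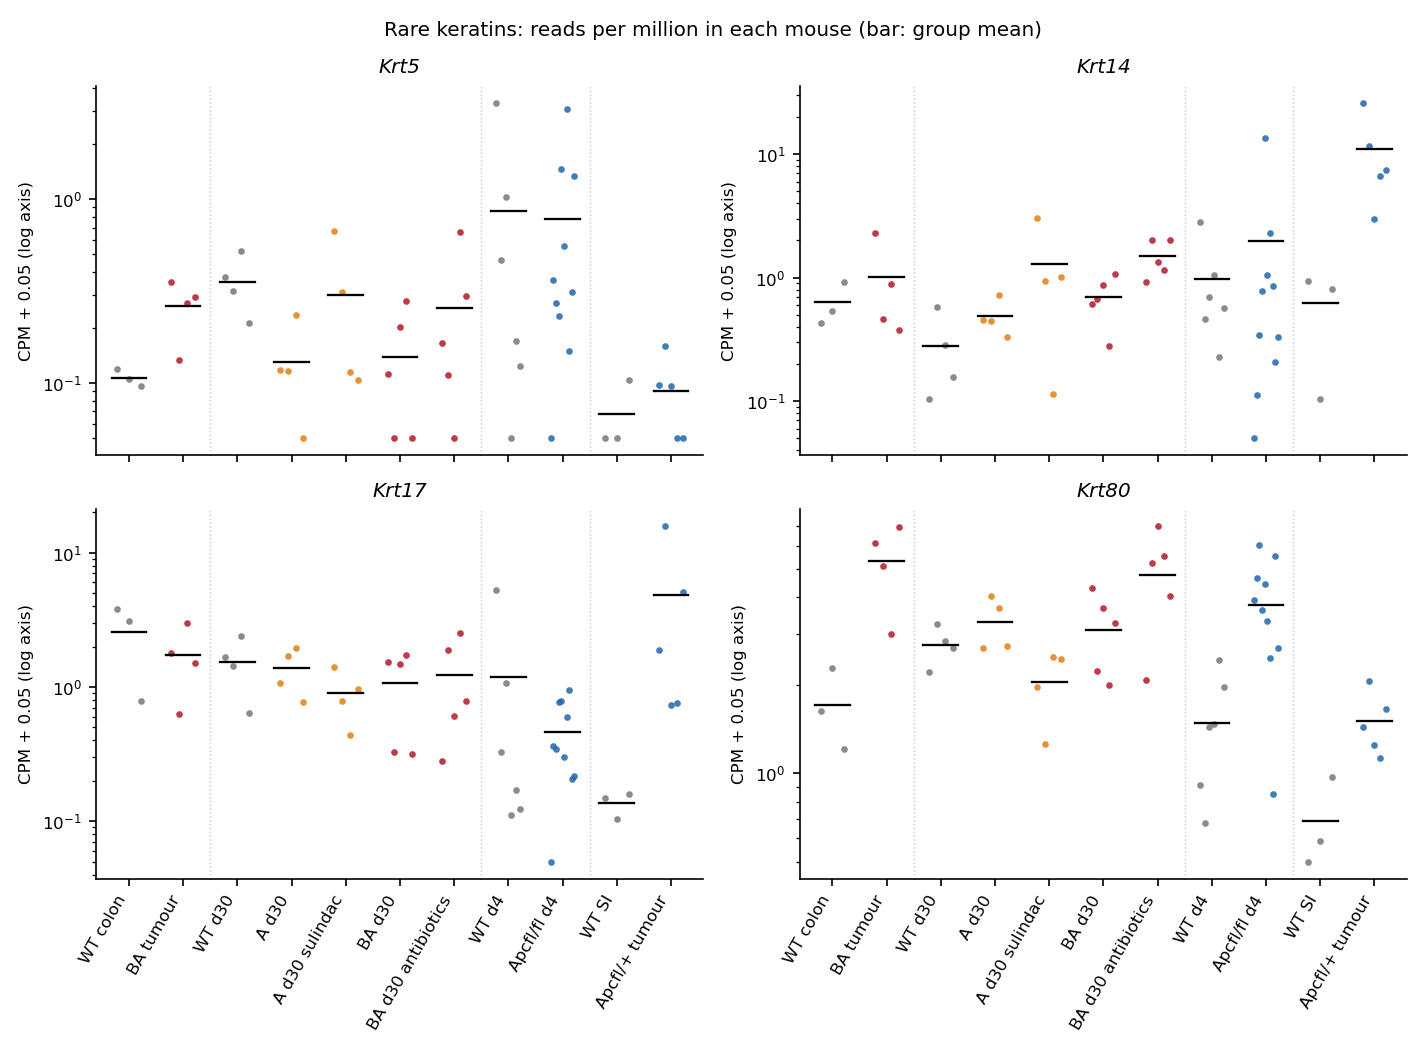
CPM + 0.05 of the rare keratins in each library (points, log axis) by group, with the group mean as a bar. Krt14 and Krt17 in the 5 Apcfl/+ tumours lie above all 3 WT SI libraries, and Krt80 stays under 7 CPM in every library.

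A further comparison set BA d30 beside A d30, groups that both lack ALK5 and differ in BrafV600E. There 6 of 9 keratins tested were called higher (21.7% of all genes, with 45.3% in either direction and 35.8% without overlap), namely Krt18 (2.31, SE 0.16), Krt7 (1.80, SE 0.18), Krt23 (1.32, SE 0.35), Krt8 (0.99, SE 0.22), Krt19 (0.98, SE 0.20) and Krt20 (0.95, SE 0.21), with adjusted p-values of 3.02e-06 to 0.0108. Krt80, Krt14 and Krt17 were not called. Without A d30 replicate 1, which had the most Krt8, Krt18 and Krt19 of its group, the same 6 were called, with Krt8 at 1.30 and Krt18 at 2.52. On the pan-epithelial scale Krt20 (0.36, adjusted p = 0.0713) and Krt23 (0.74, adjusted p = 0.0702) were not called.

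Krt7 and Krt23 were lower in BA d30 libraries with antibiotics than without. Krt7 fell by 0.88 on the log2 scale (SE 0.15, adjusted p = 0.00426) and Krt23 by 1.43 (SE 0.29, adjusted p = 0.0085), and neither overlapped between the 5 treated and 5 untreated libraries, as for 11.8% of all genes. These were 2 of the 9 keratins tested, where 8.5% of all genes were called lower and 13% in either direction. Krt8 (0.10, SE 0.11), Krt19 (0.05, SE 0.11), Krt20 (0.22, SE 0.12) and Krt18 (-0.21, SE 0.09, adjusted p = 0.149) were not called. Antibiotic replicate 3, with a fibroblast marker sum of 7578 CPM against 969 to 1480 CPM in the other 4, had the least Krt8 and Krt19 of its group, and without it Krt7 fell by 0.80 and Krt23 by 1.43. Krt14 was 1.08 higher (SE 0.36, adjusted p = 0.0733), and without antibiotic replicate 1 it was called (1.21, adjusted p = 0.04995).

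Between A d30 with and without sulindac no keratin difference passed the test. Of 9 tested, 0 were called, as were 0 of all 17568 genes (0%), although 460 genes had an unadjusted p under 0.05 and DESeq2 called 8. Krt80 alone had an unadjusted p under 0.05 (-0.64, SE 0.28), and its groups did not overlap, at 1.92, 1.21, 2.45 and 2.41 CPM with sulindac against 2.63, 3.99, 3.63 and 2.68 CPM without. Such a separation was seen for 1.74% of all genes.

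The effects of the mutations on keratins differed between models where the difference itself was tested. The log2 fold change of BA tumours over WT colon was lower than that of Apcfl/+ tumours over WT SI for Krt7 (difference -1.38, SE 0.47, adjusted p = 0.0328), Krt19 (-1.35, adjusted p = 0.0106), Krt23 (-2.18, adjusted p = 0.0284), Krt14 (-3.54, adjusted p = 0.0255) and Krt17 (-6.14, adjusted p = 0.00649), which is 5 of 9 tested, where 17.7% of all genes had a lower difference and 39.7% one in either direction. Of these, Krt19 (-0.10), Krt14 (0.63) and Krt17 (-0.58) were not called in BA tumours against WT colon. For Krt18 the difference was not called (-1.03, SE 0.48, adjusted p = 0.0994). It was called in 3 of 15 leave-one-out fits, without BA tumour replicate 2, WT colon replicate 2 or Apcfl/+ tumour replicate 2. The Krt8 difference was not called (-1.09, SE 0.47, adjusted p = 0.0777), but it was without Apcfl/+ tumour replicate 2 (adjusted p = 0.0263). The 2 tumour types also differ in organ and background strain, which cannot be told apart from the genotype. The count fell to 3 without WT colon replicate 1 or WT SI replicate 1, and to 2 without WT colon replicate 3. Krt7 was also lost without WT SI replicate 3 and Krt23 without WT SI replicate 2. Over the 15 leave-one-out fits the Krt7 difference ran from -1.81 to -1.14 and that of Krt23 from -2.79 to -1.501.

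Relative to WT colon and WT d30, BA tumours showed smaller effects than BA d30 tissue for Krt8 (-1.41, adjusted p = 0.00517), Krt19 (-1.31, adjusted p = 0.00605) and Krt20 (-1.21, adjusted p = 0.0208), 3 of 9 tested (6.46% of all genes lower, 16.3% in either direction). Krt7 and Krt23 were not called, nor was Krt18 (-1.13, adjusted p = 0.0503). Krt80 went the other way and was not called (1.35, adjusted p = 0.0517). DESeq2 called both Krt18 and Krt80. The Krt20 difference was lost in 5 of 16 leave-one-out fits (without WT colon replicate 2, BA d30 replicate 5 or WT d30 replicate 1, 3 or 4), with values of -1.49 to -0.81. Relative to their own WT, Apcfl/+ tumours showed larger effects than Apcfl/fl d4 tissue for Krt7 (1.29, adjusted p = 0.0235), Krt8 (0.96, adjusted p = 0.0197), Krt19 (1.28, adjusted p = 0.00172), Krt23 (1.49, adjusted p = 0.000223) and Krt17 (7.28, adjusted p = 0.00336), 5 of 10 tested (12.4% of all genes higher, 24.7% in either direction). These 2 Apc contrasts also differ in background strain and in Apc genotype, which cannot be told apart from tumour state. In both this difference and that of BA tumours and BA d30, the library sets differ in Krt8-ps level, the source of which was not tested. The Krt17 value again rests on few counts. Over the leave-one-out fits it ran from 5.39, without WT d4 replicate 1, to 7.55, called in each. Krt7 was lost without WT SI replicate 1 (adjusted p = 0.0736), and Krt8 without WT SI replicate 2 or 3 (adjusted p up to 0.0606). Krt20 (0.47, SE 0.47, adjusted p = 0.504) and Krt18 (0.77, SE 0.36, adjusted p = 0.118) were not called there. Without Apcfl/+ tumour replicate 2 Krt18 was called (adjusted p = 0.0461).

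The calls in BA tumours were the least stable of those against WT. Without tumour replicate 4, or without WT colon replicate 1 or 3, 0 of the 4 were called, and without tumour replicate 3 or WT colon replicate 2, 2 were. Without tumour replicate 4 the values were 1.40 for Krt7 (adjusted p = 0.0566), 1.497 for Krt18 (0.1095), 2.37 for Krt23 (0.0813) and 1.55 for Krt80 (0.0801). Markers of other cell types also differed between BA tumours and WT colon. The 8 mesothelial markers summed to 113 to 443 CPM against 12.3 to 94.0 CPM in WT colon, the 6 fibroblast markers to 3750 to 5323 CPM against 1568 to 2282 CPM, and the 6 immune markers to 575 to 1175 CPM against 294 to 327 CPM. Of these lists, 1 of 6 mesothelial genes tested (median -0.97), 2 of 6 fibroblast and 3 of 6 immune genes were called higher and 0 lower. Over all genes in this comparison, 7.46% were called higher and 13.2% in either direction. No marker of these lists was at 0 throughout a group. The mesothelial sum was mostly mesothelin (Msln), at 90.9 to 427 CPM against 0.515 to 4.36 CPM and the 1 gene called, while Upk3b (-2.75), Muc16 (-4.11), Gpm6a (-1.75), Wt1 (-0.18) and Upk1b (1.00) were not called. The smooth muscle markers summed to 1711 to 3428 CPM against 2366 to 8902 CPM, with 4 of 8 called lower and 0 higher. The part of these cell types in the keratin values was not tested.

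In BA d30 the epithelial markers were higher and the muscle markers lower. The 10 pan-epithelial genes summed to 6413 to 7246 CPM against 4787 to 5460 CPM in WT d30, and 8 of 10 were called higher, with a median log2 fold change of 0.55 (Epcam 0.73, Cdh1 0.73) against -0.03 over all genes tested. Smooth muscle markers summed to 1056 to 4166 CPM against 5852 to 6506 CPM. Scaled on the pan-epithelial genes, which moved the median of all genes to -0.51, Krt7 was still higher by 2.00, Krt18 by 2.25, Krt8 by 0.74, Krt19 by 0.73, Krt20 by 0.57 and Krt23 by 1.47, each called. With antibiotics 7 of 10 pan-epithelial genes were called higher, and in Apcfl/+ tumours 7 of 10. Over all genes, 25.8% were called higher in BA d30, 21.8% with antibiotics and 31.4% in Apcfl/+ tumours. The mesothelial sum of BA d30 (23.3 to 39.7 CPM) was below that of WT d30 (45.3 to 102 CPM). The lower sum was mostly Muc16, with a median of 0.186 CPM in BA d30 against 59.2 CPM in WT d30. Msln (median 8.625 against 2.35 CPM) and Upk1b (17.8 against 3.30 CPM) went the other way, without overlap in CPM. The remaining genes of the list had lower medians in BA d30.

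RNAs of most genes on a list of keratin filament linkers and desmosome genes were higher in BA d30. The list also holds Sfn, a 14-3-3 protein that is not itself a filament anchor. Pan-epithelial genes were higher in BA d30 too, and their part in these values was not tested. Of 11 linker and desmosome genes, 10 were called higher and 0 lower, where 25.8% of all genes were called higher, with a median of 1.22 against -0.03 over all genes. Ppl, the plakin periplakin, had the largest value (2.62, SE 0.12), and Eppk1, epiplakin, the smallest (-0.03, SE 0.11). With antibiotics 10 were again called higher (21.8% of all genes), against 1 (Ppl, 2.03) in BA tumours (7.46% of all genes). In A d30 and in A d30 with sulindac 0 were called higher, where 0.141% and 0.0507% of all genes were called in either direction. In Apcfl/fl d4 2 were higher and 3 lower, from 1.26 for Ppl to -0.76 for plectin (Plec). In Apcfl/+ tumours 4 were higher and 1 lower, from 1.32 for Sfn, the 14-3-3 protein stratifin, to -1.47 for Eppk1. Of all genes, 54.2% were called in either direction in Apcfl/fl d4 and 61.5% in Apcfl/+ tumours. The linker counts in these 2 comparisons lie below those shares and are not a result about these genes.

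Of 10 transcription factors linked to keratin genes, 5 were called higher and 0 lower in BA d30, 3 and 1 with antibiotics, and 0 in BA tumours and in the A groups. Fosl1, an AP-1 subunit, had the largest value in BA d30 (2.48), with antibiotics (1.92) and in Apcfl/fl d4 (3.68). In Apcfl/fl d4 it held 0 to 3.69 CPM against 0.0463 to 0.221 CPM in WT d4, which is near the counting floor. It passed the filter on low counts there through the mutant libraries, so the 3.68 gives no support to a direction. Of the 10 factors, 3 were called higher and 3 lower in Apcfl/fl d4. In Apcfl/+ tumours 4 were called higher and 0 lower, with Ehf, an epithelial ETS factor, the largest (2.11). Of all genes, 55.1% were called in either direction in BA d30, 39.6% with antibiotics, 54.2% in Apcfl/fl d4 and 61.5% in Apcfl/+ tumours. The share was 13.2% in BA tumours, 0.141% in A d30 and 0.0507% in A d30 with sulindac. These counts lie near or below the background and are not a result about the factors.

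Among the other 43 keratins, those of stratified epithelia gave the largest differences, at low levels. In BA d30, 4 of the 7 tested were called higher (25.8% of all genes higher, 55.1% in either direction), and Krt13, the mucosal partner of Krt4, stood at 2.29 to 6.33 CPM against 0 to 0.106 CPM in WT d30, while Krt4 itself was at most 0.151 CPM. Krt27 read 1.23 to 6.34 CPM against 0 to 0.923 CPM. In BA tumours 5 of 9 were called higher (7.46% of all genes higher, 13.2% in either direction), among them Krt4 (3.91 to 6.52 CPM against 0.0545 to 0.344 CPM in WT colon) and Krt13 (1.17 to 2.24 CPM against 0.0463 to 0.137 CPM). Krt13 in both comparisons and Krt4 in BA tumours passed the filter on low counts through the mutant libraries. These counts of calls therefore give no support to a direction.

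The antibiotic group had 4 called higher (Krt13 at 1.71 to 3.43 CPM) and 1 lower (Krt12, -1.12), and Krt13 was lower than in untreated BA d30 by 1.03 on the log2 scale. In Apcfl/fl d4, 3 of 6 were called higher, with Krt36 at 0 to 8.20 CPM against 0 to 0.443 CPM in WT d4, and 2 lower (Krt222 -2.19, Krt12 -1.83). In Apcfl/+ tumours 6 of 10 were called higher and 1 lower (Krt222, -1.39), with Krt4 at 1.89 to 29.9 CPM and Krt36 at 0.895 to 54.5 CPM against at most 0.0544 CPM in WT SI. Krt13 in the antibiotic group, Krt36 in Apcfl/fl d4, and Krt4 and Krt36 in Apcfl/+ tumours passed the filter on low counts through the mutant libraries. These counts of calls too give no support to a direction. In both A comparisons with WT 0 were called, where 0.141% (A d30) and 0.0507% (sulindac) of all genes were called. Of all genes, 39.6% were called in the antibiotic comparison, 54.2% in Apcfl/fl d4 and 61.5% in Apcfl/+ tumours, so the last count in particular lies near the background.

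A list of 12 squamous and basal genes holds 4 of the keratins just counted (Krt4, Krt6a, Krt13 and Krt15). In Apcfl/+ tumours 7 of 9 tested were called higher, against 31.4% of all genes, namely Krt4, Krt6a, Krt13, Dsg3, Dsc3, Pkp1 and involucrin (Ivl), the last at 0.708 to 5.94 CPM and 0 in all WT SI libraries. Krt4, Krt6a, Krt13 and Ivl were at or near 0 in WT SI and passed the filter on low counts through the tumours. The same holds for Krt13 in the BA groups, so these counts of calls give no support to a direction. In BA d30, BA tumours and the antibiotic group 3 each were called higher, of which Dsg3, a desmosomal cadherin of stratified epithelia, was the only one that is not a keratin. Krt15, Dsg3 and Pkp1 were called higher in Apcfl/fl d4, with Dsg3 at 0.221 to 8.44 CPM against 0 to 0.411 CPM. Sprr1b had 0 reads in every library, Trp63, the master factor of basal cells, had 0 in BA d30, and Krtdap had 0 in BA tumours.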

How the data were processed

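RNA was extracted from whole tissue and sequenced by the authors, who, per the labels and methods, checked reads with FastQC 0.11.8, trimmed them with Trim Galore 0.6.4, aligned them to GRCm38 with HISAT2 2.1.0 and counted reads per gene with featureCounts 1.6.4. The deposited values are raw counts per gene, not normalised, of which 55240 of 55421 identifiers had a symbol. Whether counting used strand is not given in the sources used here.

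CPM were computed here from those counts and the library total. Each comparison was fitted on its own groups with edgeR 4.0.16 in R 4.3.3 (filterByExpr, TMM scaling, quasi-likelihood test, two-sided, Benjamini-Hochberg over all genes tested, called under an adjusted p of 0.05). The SE is the log2 fold change divided by the square root of its F statistic. Overlap between groups was judged on TMM-scaled values where it differs from CPM. Promoter motifs were searched in RefSeq windows and shared 36-base words were counted in transcripts. Correlations used log2 CPM with a prior count of 2 over genes with a mean log2 CPM of at least 1.

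Alternatives were other scaling (RLE, and the 10 pan-epithelial genes), no filter, DESeq2 1.42.0, a fit of all day 30 groups, a replicate block, and each library left out. Scripts were tested on simulated data. The named genes were all 10 members, at most the 2 largest and 2 smallest called changes among the other keratins, the largest and smallest change of each marker list with any gene at 0 in a group, and the 3 closest neighbours of Krt7, Krt20 and Krt23. The members and lists were chosen with earlier results of these data known. Same-numbered libraries correlated between -0.487 and 0.294 in their deviations and no comparison had every pair over 0.1, so the numbers were not taken to pair them.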

Additional observations from a re-analysis of the deposited data

Results flagged for a closer look

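Among 90 sets of libraries of 1 keratin in 1 group, 11 libraries stood apart from the rest of their group, where chance flags about 1 in 20 groups (4.5 here). For Krt7 these were Apcfl/fl d4 replicate 5 (591.6 CPM, the others 123.8 to 327.9) and BA tumour replicate 4 (879.4 CPM, the others 371.6 to 445.8). For Krt8 it was antibiotic replicate 3 (5631 CPM, the others 7398 to 7907), and for Krt18 A d30 replicate 1 (448.1 CPM, the others 277.1 to 297.8). For Krt19 they were A d30 replicate 1 (3817 CPM, the others 2067 to 2179) and WT d30 replicate 2 (2586 CPM, the others 1862 to 1923). Krt5 stood apart in Apcfl/fl d4 replicate 7 (3.046 CPM, the others 0 to 1.402) and WT d4 replicate 1 (3.287 CPM, the others 0 to 0.972). Krt14 stood apart in Apcfl/fl d4 replicate 5 (13.59 CPM, the others 0 to 2.254) and WT d4 replicate 1 (2.794 CPM, the others 0.1796 to 0.9936). Krt17 stood apart in WT d4 replicate 1 (5.259 CPM, the others 0.0621 to 1.018).

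The following effects differed between 2 contrasts by a test of the difference itself, as log2 values. BA tumour minus Apcfl/+ tumour gave -1.38 for Krt7, -1.35 for Krt19, -2.18 for Krt23, -3.54 for Krt14 and -6.14 for Krt17. BA tumour minus BA d30 gave -1.41 for Krt8, -1.31 for Krt19 and -1.21 for Krt20. Apcfl/+ tumour minus Apcfl/fl d4 gave 1.29 for Krt7, 0.96 for Krt8, 1.28 for Krt19, 1.49 for Krt23 and 7.28 for Krt17.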

How the results depend on the processing

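Depth limits Krt5, Krt14 and Krt17, which were near the counting floor in most libraries, and shared reads limit Krt8 across library sets. The number of keratins called was most open to change in BA tumours, where 4 became 0 on the pan-epithelial scale and 0 with the replicate block. DESeq2 called 1 keratin in A d30 with sulindac (0 with edgeR). On the pan-epithelial scale, antibiotics against none gave 6 calls (4 higher and 2 lower, from 2), and the differences between contrasts gave 3 (BA tumour minus Apcfl/+ tumour, from 5) and 2 (Apcfl/+ tumour minus Apcfl/fl d4, from 5). DESeq2 gave 5 for BA tumour minus BA d30, from 3. The cause was not tested. With each library left out the calls ranged from 0 to 4 in BA tumours, 6 to 7 in BA d30 and with antibiotics, 0 to 0 in both A groups and in sulindac against none, 5 to 5 in Apcfl/fl d4, 7 to 8 in Apcfl/+ tumours, 6 to 6 in BA against A, 2 to 3 in antibiotics against none, and 2 to 7, 2 to 4 and 4 to 6 in the 3 differences, in the order given in the report.

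The replicate numbers did not pair the libraries. With the number as a block the calls were 0 (BA tumour), 7 (BA d30), 7 (antibiotics), 0 and 0 (A groups), 5 (Apcfl/fl d4), 6 (Apcfl/+ tumour), 6 (BA against A), 2 (antibiotics against none), 0 (sulindac against none) and 4, 2 and 5 (differences). Scaling on the pan-epithelial genes moved the median of all genes by -0.51 in BA d30, -0.30 with antibiotics, -0.61 in Apcfl/+ tumours, -0.66 in BA against A, 0.20 in antibiotics against none and 0.55, 0.39 and -0.56 in the differences, and RLE moved the last by -0.16. On that scale the genes called higher and lower went from 4516 and 5118 to 1261 and 11180 in BA d30, from 3833 and 3133 to 1420 and 6277 with antibiotics, from 6461 and 6189 to 2218 and 11308 in Apcfl/+ tumours, from 3725 and 4036 to 929 and 11431 in BA against A, and from 755 and 1417 to 2694 and 524 in antibiotics against none. In the differences they went from 4752 and 3844 to 6922 and 1296, from 2037 and 1334 to 3130 and 326, and from 2759 and 2727 to 980 and 6561 (RLE 2100 and 3458). All-gene calls also moved from 2527 to 1576 (pan-epithelial scale) and 931 (block) in BA tumours, from 25 to 134 (DESeq2) and 72 (no filter) in A d30, and from 9 to 112 (DESeq2), 24 (no filter), 2 (block) and 29 (all day 30 groups) with sulindac. They moved from 12650 to 8333 (block) in Apcfl/+ tumours, from 2172 to 1284 (block) and 1074 (all day 30 groups) in antibiotics against none, from 3371 to 2084 (block) for BA tumour minus BA d30, and from 0 to 8 (DESeq2), 1 (no filter) and 1 (block) in sulindac against none.

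Values that changed sign were not called in either fit. On the pan-epithelial scale these were Krt80 in BA d30 (-0.15) and in BA against A (-0.47), Krt18 in sulindac against none (-0.077), Krt17 in BA tumour minus BA d30 (0.076) and, in Apcfl/+ tumour minus Apcfl/fl d4, Krt80 (-0.45) and Krt20 (-0.13). In that last difference Krt80 was also -0.10 with RLE, -0.10 with DESeq2 and -0.18 with the block. Krt14 in Apcfl/fl d4 was -0.72 with DESeq2, and Krt17 in BA against A was 0.053 with the block. With each library left out, log2 values that crossed 0 ran from -0.22 to 0.056 (Krt19) and -0.37 to 0.16 (Krt20) in BA tumours, from -0.73 to 0.072 (Krt17) with antibiotics, and from -0.058 to 0.40 (Krt8), -0.030 to 0.40 (Krt19), -0.12 to 0.28 (Krt20) and -0.48 to 0.11 (Krt17) in A d30. They ran from -0.093 to 0.22 (Krt20) with sulindac, from -0.11 to 0.049 (Krt19) and -0.64 to 1.70 (Krt14) in Apcfl/fl d4, from -0.0042 to 0.31 (Krt80) and -0.39 to 0.10 (Krt17) in BA against A, and from -0.31 to 0.42 (Krt17) and -0.012 to 0.14 (Krt19) in antibiotics against none. In sulindac against none they ran from -0.0076 to 0.35 (Krt7), -0.063 to 0.24 (Krt18), -0.17 to 0.24 (Krt19), -0.24 to 0.20 (Krt20), -0.21 to 0.46 (Krt23) and -0.27 to 0.20 (Krt8). In the differences they ran from -0.61 to 0.13 (Krt17, BA tumour minus BA d30), and from -0.17 to 0.36 (Krt80) and -0.23 to 3.03 (Krt5) for Apcfl/+ tumour minus Apcfl/fl d4.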
